A study of Mus musculus with 2 samples.

Results

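Smooth muscle and contractile stromal genes were followed on 2 microarrays that set liver RNA of MMP-14 knockout mice against wild type. The 10 genes were taken from a fixed list, and 9 of them were named on the arrays, each by 1 probe, among 16387 named genes in all. They were Acta2, Tagln, Cnn1, Tpm2, Myh11, Mfap4, Fhl1, Crip1 and Crip2, and Myl9 was not analysed here because no probe carried its name. Tagln, Fhl1 and Crip2 were chosen by their ratios, which went opposite ways on the arrays, and Acta2 and Mfap4 by low ratios on the second, so these ratios are a description and support nothing. Cnn1, Tpm2, Crip1 and Myh11 were not chosen for a stated ratio.

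The E14 array compared Dlk-positive, CD45-negative, CD71-negative and Ter119-negative cells sorted out of livers labelled embryonic day 14, as RNA of 100000 cells from 3 MMP-14 knockout livers and from 3 wild-type livers. The P1 array compared whole liver, labelled postnatal day 1 although the design text gives a late embryonic stage, as mixed RNA of 2 knockout and 2 wild-type livers. The strain, the knockout allele and any treatment are not given in the sources used here, and the animals were pooled. Wild type was labelled with Cy5 and knockout with Cy3 on both arrays, so dye and genotype cannot be told apart. With 1 array per comparison no value has an error between animals, no test was possible and the number of arrays limits the precision.

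Smooth muscle cells and activated fibroblasts contract by sliding actin filaments, built with alpha smooth muscle actin (Acta2), past myosin (heavy chain Myh11, light chain Myl9). Tropomyosin (Tpm2), calponin (Cnn1) and transgelin (Tagln) sit on the actin filament and steady it or set how it responds to calcium. Many of these genes are switched on by serum response factor, which binds a short element called the CArG box. In fetal liver such genes mark vessel walls, portal fibroblasts and stellate cells, and in lung they mark airway and vessel muscle and myofibroblasts. Mfap4 is an extracellular protein of elastic fibres, and Fhl1, Crip1 and Crip2 are small LIM-domain proteins found in muscle and stromal cells.

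Promoter windows from RefSeq (GRCm38.p6, 250 bases before to 50 after the start) are shown for the genes whose ratios the account turns on and whose window was given. Of the 10 listed genes 7 had a window, and Tagln, Mfap4 and Myh11 did not. Capitals mark the CArG box, or a CArG box with 1 G or C in its 6-base core. The element reads the same on both strands, and its strict and relaxed forms do not overlap. The windows are chr19:34255324-34255623 on the minus strand for Acta2, chrX:56779433-56779732 on the plus strand for Fhl1, chr12:113151762-113152061 on the plus strand for Crip1 and chr12:113139986-113140285 on the plus strand for Crip2.
Acta2: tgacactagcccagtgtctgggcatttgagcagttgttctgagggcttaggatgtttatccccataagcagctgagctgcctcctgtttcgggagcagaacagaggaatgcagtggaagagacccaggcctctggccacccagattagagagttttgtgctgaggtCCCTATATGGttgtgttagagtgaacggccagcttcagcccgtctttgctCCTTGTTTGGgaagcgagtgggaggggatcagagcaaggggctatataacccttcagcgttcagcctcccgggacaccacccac
Fhl1: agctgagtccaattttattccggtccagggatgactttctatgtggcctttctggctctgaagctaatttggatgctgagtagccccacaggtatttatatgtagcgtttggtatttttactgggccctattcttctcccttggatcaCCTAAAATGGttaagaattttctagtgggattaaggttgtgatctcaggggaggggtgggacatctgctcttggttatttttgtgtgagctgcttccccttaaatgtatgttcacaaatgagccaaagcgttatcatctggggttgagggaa
Crip1: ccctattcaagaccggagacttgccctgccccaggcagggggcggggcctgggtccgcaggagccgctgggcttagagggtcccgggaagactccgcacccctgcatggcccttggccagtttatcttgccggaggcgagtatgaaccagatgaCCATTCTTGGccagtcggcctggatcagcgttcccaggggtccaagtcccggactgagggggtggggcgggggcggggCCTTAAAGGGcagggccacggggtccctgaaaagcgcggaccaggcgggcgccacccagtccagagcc
Crip2: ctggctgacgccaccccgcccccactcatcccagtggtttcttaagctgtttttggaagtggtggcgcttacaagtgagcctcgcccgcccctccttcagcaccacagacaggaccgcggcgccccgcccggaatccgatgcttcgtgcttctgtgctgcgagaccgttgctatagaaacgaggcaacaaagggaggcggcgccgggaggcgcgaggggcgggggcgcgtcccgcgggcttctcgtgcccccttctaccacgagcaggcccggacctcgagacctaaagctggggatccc

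The Acta2 window held 2 relaxed CArG boxes, which began 84 and 34 bases before the start. The Fhl1 window held 1 strict CArG box, beginning 102 bases before its start, and a second Fhl1 window held none. The Crip1 window held 2 relaxed boxes, at 96 and 18 bases before its start, and neither of 2 Crip2 windows held one. Cnn1 and Tpm2 had no match. The window of the unmeasured Myl9 held 1 strict and 1 relaxed box. Of 32851 RefSeq windows of this length, 1.63% held a strict box and 8.5% a relaxed one. A match describes letters only. Crip2 and Crip1 lie near each other on chromosome 12, with 1 annotated gene between them in the RefSeq table.

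The knockout channel read brighter than the wild-type channel throughout, by a median factor of 2.19 over 12705 detectable genes on the E14 array and 1.56 over 12715 on the P1 array, so raw signals are set against each channel's own detection threshold. A channel counted as detectable above the mean of trimmed blank spots plus 2 SD, which was 44.3 (wild type) and 85.1 (knockout) on the E14 array and 50.5 and 87.0 on the P1 array. Ratios are given as log2, knockout over wild type, after loess normalisation, on a scale with an offset of 50 that shrinks dim genes. Between probes of the same gene these ratios had an SD of 0.12 on the E14 array and 0.23 on the P1 array (139 genes each). Mmp14, the deleted gene, stood at -1.13 and -1.30. Its size moved with the processing: the authors' deposited table gave -2.13 for E14 and -2.83 for P1, and normexp run with the scanner's local background gave -0.45 and -0.27.

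The defining markers of mature smooth muscle were near the detection limit. Myh11 gave signals of 48.2 in wild type and 108 in knockout on the E14 array, which are 1.09 and 1.27 times the thresholds. On the P1 array it gave 68.6 and 89.2, or 1.36 and 1.03 times the thresholds. Cnn1 gave 44.6 and 88.2 on the E14 array and 69.2 and 83.3 on the P1 array, where the knockout signal was below threshold. Myocd, the cofactor of serum response factor that is most restricted to smooth muscle, was below threshold in all 4 channels. The other measured genes (Acta2, Tagln, Tpm2, Mfap4, Fhl1, Crip1 and Crip2) are ones that stromal and other cell types also express.

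**Figure D1:**
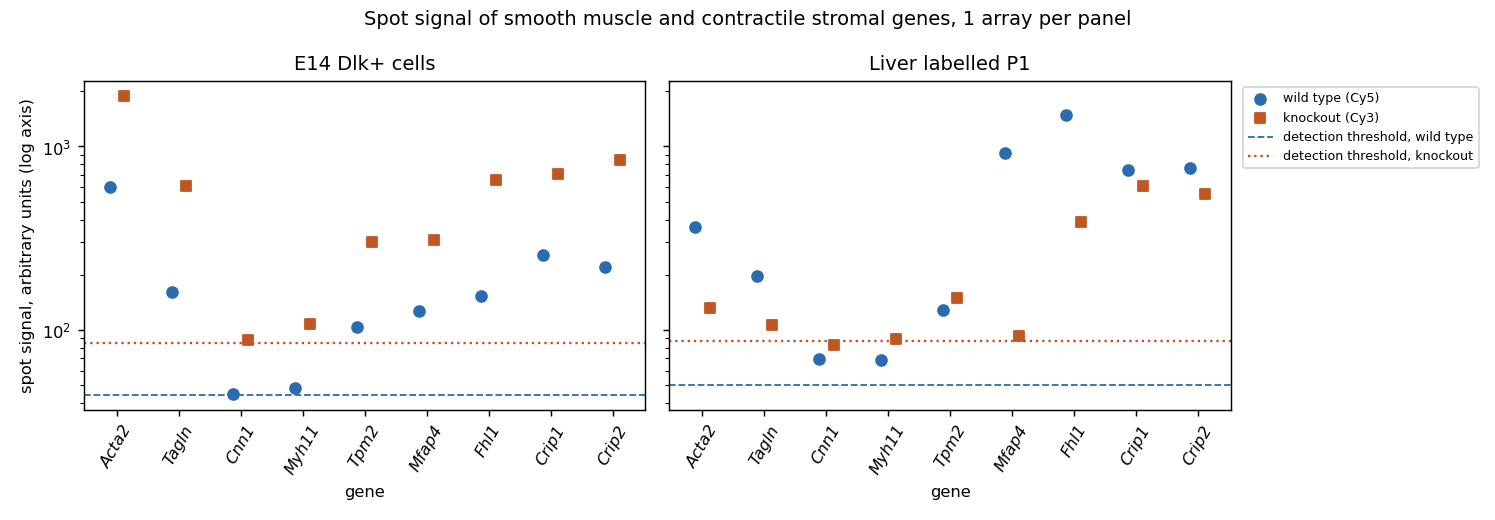
Spot signal in arbitrary units (log axis) of 9 genes in the wild-type (circle) and knockout (square) channel of each array, with the detection thresholds as lines; each point is 1 probe on 1 array. Cnn1 and Myh11 lie close to the thresholds throughout, and on the P1 array Mfap4 has a wild-type signal of 916 and a knockout signal of 93.3, just above the threshold of 87.0.

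Acta2, the actin of the set, was read well above threshold in both channels of sorted cells. Its E14 signals were 601 in wild type and 1883 in knockout, or 13.6 and 22.1 times the thresholds, and its log2 ratio was 0.37. When normexp was given the scanner's local background (called local-background normexp below) that ratio was 0.068, and it was -0.021 when the local background was subtracted, so its direction on the E14 array is not settled. On the P1 array its signals were 366 and 132, or 7.25 and 1.52 times the thresholds, and the ratio was -2.11, the 27th lowest of 12715. In the authors' deposited table the P1 value was -3.12, and the E14 value 0.34. The wild-type P1 channel was thus far above threshold for Acta2, and the knockout channel was not far above it.

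Tagln, an actin-bundling protein of contractile cells, went the same way. Its E14 signals were 160 in wild type and 608 in knockout, with a ratio of 0.68 that ranked 17th highest of 12705. Its P1 signals were 196 and 107, and the ratio was -1.54. The authors' deposited table gave 0.81 and -3.03. The size of the P1 value rests on a knockout signal only 24.5 units above the mean blank, and the E14 ratio was 0.55 under local-background normexp.

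Tpm2, a tropomyosin, showed the same signs at smaller size. It read 104 and 303 on the E14 array, with a ratio of 0.36, and 129 and 149 on the P1 array, with a ratio of -0.36. Myh11 stood at 0.13 and -0.36, and at 0.86 and -2.04 in the authors' deposited table. Its knockout signal on the P1 array was 6.75 units above the mean blank, so the larger value has little signal under it. Cnn1 stood at -0.02 on the E14 array, against 0.33 in the authors' deposited table, from signals 2.35 and 7.54 units above the blank means. On the P1 array Cnn1 was detectable in wild type alone, at 1.37 times the threshold. By channel values after loess and Aquantile normalisation, which carry any dye bias, it was at least 1.40-fold higher there. The measured log2 means were 6.31 and 5.79. That bound holds for these values only, and the log2 ratio was -0.34 under local-background normexp.

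Mfap4, the elastic fibre glycoprotein, had the lowest P1 ratio of the set. Its P1 signals were 916 in wild type and 93.3 in knockout, or 18.2 and 1.07 times the thresholds, with a ratio of -4.12 that was the 8th lowest of all genes. The authors' deposited table gave -6.76, where the knockout signal lay 10.8 units above the mean blank. In sorted E14 cells the signals were 127 and 311 and the ratio was 0.11, within the SD between probes. It was -0.079 once the local background was subtracted.

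Fhl1, a LIM-domain protein of muscle and stroma, was above threshold in all 4 channels. Its signals were 154 and 659 on the E14 array, where the ratio was 0.86 and the 8th highest. They were 1491 and 390 on the P1 array, where the ratio was -2.57. Both P1 channels were well above threshold, at 29.6 and 4.49 times, and the authors' deposited table gave a near value of -2.67, with 1.03 for the E14 array. Over the alternatives run, its E14 ratio stayed between 0.71 and 1.42 and its P1 ratio between -2.76 and -2.19.

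Crip1 and Crip2, cysteine-rich LIM proteins, were bright on both arrays. Crip2 read 220 and 845 on the E14 array (ratio 0.69, the 16th highest) and 762 and 553 on the P1 array (ratio -1.06). Crip1 read 257 and 704 (ratio 0.20) and 745 and 610 (ratio -0.88). The E14 ratios were larger under local-background normexp, at 0.88 for Crip2 and 0.44 for Crip1. The P1 ratios then nearly vanished, at -0.13 for Crip2 and 0.041 for Crip1. The local background beside these P1 spots was high in wild type, at 583 for Crip2 and 586 for Crip1, against 367 and 417 in knockout.

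**Figure D2:**
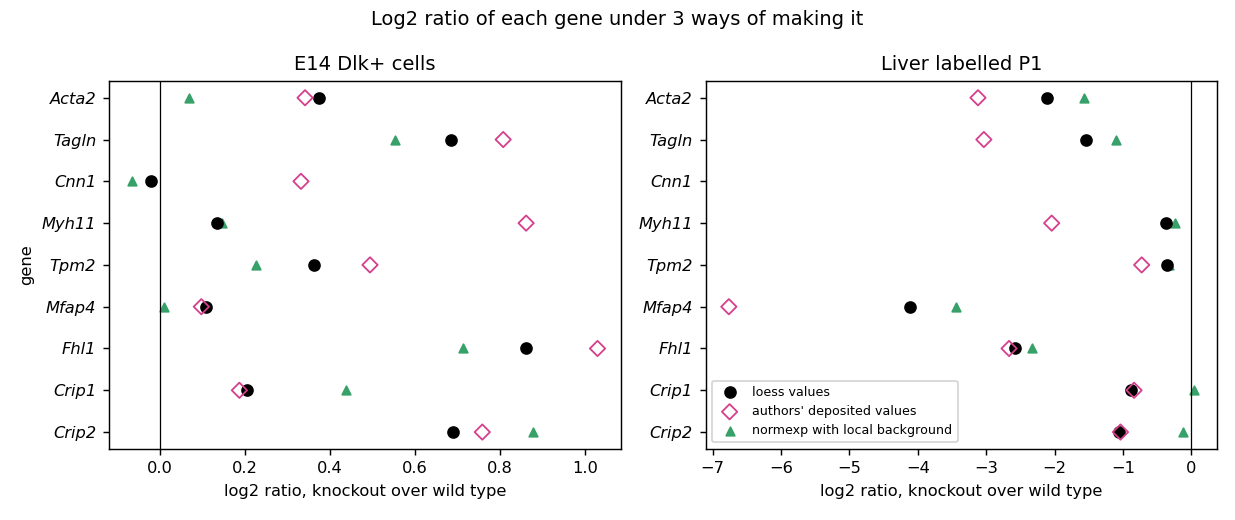
Log2 ratio of knockout over wild type (x axis) for each gene (y axis) on the E14 and P1 arrays: filled circles are loess values, diamonds the authors' deposited values and triangles local-background normexp; each point is 1 array. Fhl1 keeps its place under all 3 on the P1 array (-2.57, -2.67 and -2.33), while Crip1 and Crip2 move to 0.041 and -0.13 under local-background normexp, and Cnn1 has no P1 point because its knockout signal was below threshold.

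As a set, 8 of the 9 genes were above 0 on the E14 array and 0 of 8 were above 0 on the P1 array. The background share of all detectable genes above 0 was 53.1% and 49.6%. On the E14 array 0 genes were at least 2-fold higher (background 0.0157%) and 3 were at least 1.5-fold higher (background 0.307%). On the P1 array 5 of 8 were at least 2-fold lower (background 1.45%), and Crip2 at -1.06 lay just past that size and Crip1 at -0.88 just short of it. At least 1.5-fold lower on the P1 array were 6 of 8 (background 4.12%). The counts moved with the scaling: at least 2-fold higher on the E14 array were 1 in the authors' deposited table (background 1.26%), 4 under median centring (background 1.22%) and 2 after subtraction of the local background (background 6.55%), and 6 were at least 2-fold lower on the P1 array in the authors' deposited table (background 5.03%). Since the genes were partly picked for these ratios, nothing is read from those counts. The medians were 0.36 and -1.30, beside 0.0068 and -0.0018 over all detectable genes. Among the 4 genes not chosen for a stated ratio, the E14 median was 0.17, with 3 above 0. The 3 of them that were detectable in both P1 channels had a median of -0.36. They too were listed with earlier results of these data known, so nothing is read from these values. With median centring in place of loess the median of all genes on the E14 array was 0.29, and Cnn1 at -0.27 and Myh11 at 0.02 stood below it. Both were near threshold. Acta1, not detectable in wild type there, also stood at -0.27 under this centring, so no direction is read for them.

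**Figure D3:**
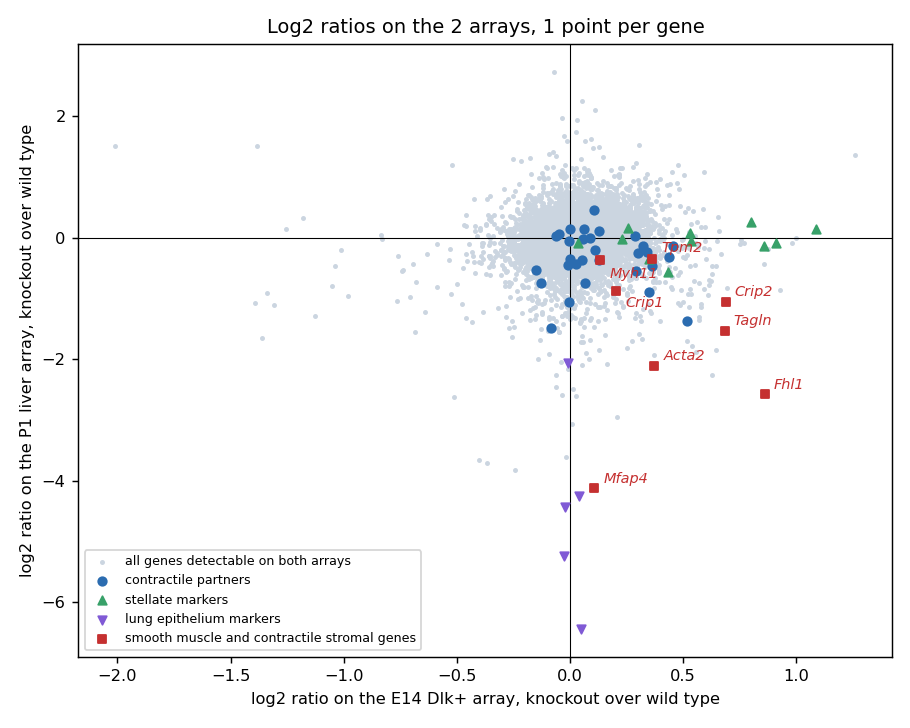
Log2 ratio on the E14 Dlk+ array (x axis) against that on the P1 array (y axis), 1 point per gene, with all 12005 genes detectable on both arrays in grey and 4 gene lists in colour. Fhl1, Tagln, Crip2 and Acta2 lie to the lower right, Mfap4 lies near x of 0.11 beside the lung epithelium markers, and the stellate markers lie to the right near y of 0.

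The arrays were also set beside each other within each genotype. Channel levels were compared on a log2 scale after Aquantile normalisation, on which probes detectable on both arrays had a median P1 minus E14 difference of -0.06 in either genotype. Cells and stage differ between the arrays, so these are levels of a sorted population against whole liver. In wild type, Fhl1 was 3.02 higher in P1 liver than in sorted E14 cells, Mfap4 2.49 higher, Crip2 1.55 higher and Crip1 1.31 higher. In knockout the same genes stood at -0.41, -1.74, -0.19 and 0.22. For Fhl1 and the Crip genes the knockout levels differed less between the arrays than the wild-type levels. By construction, the 2 genotypes differ in these gaps by the P1 minus E14 difference of the ratios. Fhl1, Tagln and Crip2 were chosen for that difference, and Acta2 and Mfap4 for low P1 ratios, so nothing is read from it. The wild-type P1 signals of Crip2 and Crip1, 762 and 745, had local backgrounds of 583 and 586.

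Acta2 and Tagln followed another order. Acta2 was lower in P1 liver in both genotypes, by -1.10 in wild type and -3.59 in knockout. Tagln stood at -0.16 in wild type and -2.38 in knockout. Tpm2 stood at -0.10 and -0.82. For these filament genes the larger gap lay between the knockout channels, and the same limit of choice holds for Acta2 and Tagln.

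**Figure D4:**
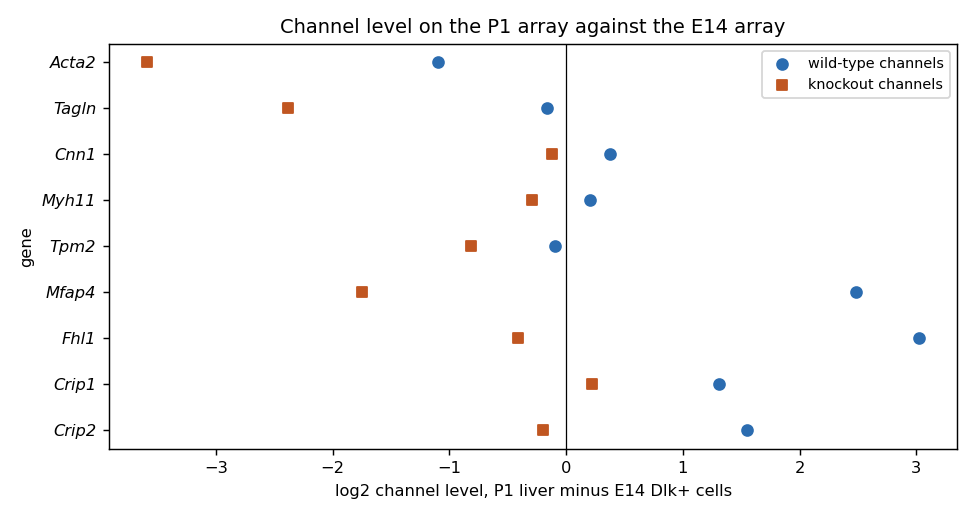
Log2 channel level on the P1 array minus that on the E14 array (x axis) for each gene (y axis), in wild-type (circle) and knockout (square) channels after Aquantile normalisation, 1 array each. Fhl1 (3.02) and Mfap4 (2.49) are far to the right in wild type, and Acta2 (-3.59) and Tagln (-2.38) far to the left in knockout.

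Partners of the contractile apparatus had ratios nearer 0 than the smooth muscle and contractile stromal genes. That set was partly picked for opposite or low ratios, so nothing is read from this difference, which was not tested. Its genes not chosen for a stated ratio had medians of 0.17 (E14) and -0.36 (P1). Of a list of 40 actins, myosin chains, tropomyosins, actin-binding proteins and other genes of contraction, 35 were named on the arrays. In sorted cells 33 of them could be read in both channels, with a median of 0.07. By loess values 24 were above 0 (background 53.1%) and 0 were at least 1.5-fold higher (background 0.307%) or lower. At least 1.5-fold higher were 5 in the authors' deposited table and 18 under median centring. Under that centring their median was 0.60, beside 0.29 over all genes. Background shares at 1.5-fold were not computed for those 2 scalings. The highest were Cnn2 (0.52), a calponin of non-muscle cells, the intermediate filament gene Des (0.46) and the integrin gene Itga8 (0.44). The lowest were Actb (-0.15), Tagln2 (-0.13) and Actn1 (-0.10).

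In whole liver 31 partners were detectable, with a median of -0.25 and 7 above 0 (background 49.6%). At least 2-fold lower were 3 of 31, beside the background of 1.45%. They were the LIM protein gene Csrp1 (-1.50), Cnn2 (-1.37) and Actg2 (-1.05), the enteric smooth muscle actin. Csrp1 read 504 in wild type and 267 in knockout, Cnn2 read 1741 and 1053, and Actg2 read 184 and 134. The highest were Cald1 (0.46), caldesmon, then Lmod1 (0.14) and Synpo2 (0.13). Cald1, which binds the same filaments as Tpm2 and Cnn1, read 121 and 235. With median centring the list's median was -0.05, beside 0.05 over all genes.

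Actins share much of their sequence, and the probe sequences were not used here, so cross-reaction between Acta2 and Actg2 was not tested. On the E14 array Actg2 stood at -0.003, from signals of 167 and 386, while Acta2 stood at 0.37. The skeletal actin gene Acta1 was near threshold, at 52.9 and 88.3 on the P1 array.

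Regulators of the smooth muscle programme had loess ratios near 0 in sorted cells. Of 12 genes, 10 could be read in both E14 channels, with a median of 0.07 and ratios from -0.03 (Elk1) to 0.17 (Klf4). Srf itself read 91.1 and 210 on the E14 array (ratio 0.07) and 99.5 and 127 on the P1 array (ratio -0.24). In P1 liver 7 were detectable with a median of -0.23. Klf4, a repressor of smooth muscle genes and also an immediate early gene, had the lowest at -1.19, followed by Gata6 at -0.47. In the authors' deposited table the medians were 0.22 and -0.65, with Smad3, a transducer of TGF-beta signals, highest on the E14 array at 1.40 from signals of 44.7 and 97.0 near the thresholds, and Klf4 lowest on the P1 array at -1.81.

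Relatives of the LIM and microfibril genes did not all follow them. Fhl2 stood at 0.51 on the E14 array, from signals of 106 and 342, and at -0.16 on the P1 array, from 73.9 and 105. Fhl3 was not detectable in both channels of either array. Csrp2 stood at 0.29 and 0.02, while Csrp1 stood at -0.08 and -1.50. Mfap2, another microfibril glycoprotein, stood at 0.15 and -1.34, the latter from signals of 189 and 116, and Mfap5 stood at 0.13 and -0.49. Mfap3 stood at 0.08 and 0.09. Their differences from Fhl1, Crip2 and Mfap4 were not tested.

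Markers of other cells moved beside the set, and their part in its ratios was not tested. Among sorted cells of the E14 array all 11 measured stellate markers were above 0 (background 53.1%), with a median of 0.53. Highest were Colec10 (1.09), Colec11 (0.91) and Dcn (0.86). The summed raw signal of the 11 was 2512 in wild type and 10114 in knockout, blank level included. On this array the knockout channel read brighter by a median factor of 2.19 over all detectable genes. Of 8 pericyte markers, 2 were at least 1.5-fold higher (background 0.307%), the potassium channel genes Kcnj8 (0.67) and Abcc9 (0.60), while the mural markers Rgs5 (0.10), Cspg4 (-0.10) and Notch3 (0.02) stood near 0. Mesothelial markers had a median of -0.17, with Upk3b at -1.01. In these bulk samples, fewer cells of a type and less RNA per cell cannot be told apart. Of the genes used for sorting, Dlk1 read 4971 and 11869, and Ptprc, which encodes CD45, read 43.8 and 88.9, near its thresholds. Tfrc, which encodes the CD71 used for exclusion, was detectable at 196 and 518.

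In P1 liver all 14 lung epithelium markers were detectable in wild type and 8 in knockout, and the 8 had a median of -5.25. The summed raw signal of all 14, detectable or not, was 43715 in wild type and 1520 in knockout. Such sums include the blank level of each spot, a mean of 48.0 in wild type and 82.5 in knockout on this array. Lowest in ratio were Sftpc at -7.85, Scgb1a1 at -6.95 and Cbr2 at -6.44. On the E14 array 7 of the 14 were detectable in wild type and 7 in knockout, and 6 in both had a median of -0.01. Of all 16387 named genes, 12705 were detectable in both channels there. Lung mesenchyme markers on the P1 array had a median of -0.36, with 1 of 11 above 0 (background 49.6%). Their summed raw signals were 2116 and 1477 over all 12. Inmt (-2.45), Tcf21 (-2.27) and Foxf1 (-1.06) were lowest. Of these markers 3 of 11 were at least 2-fold lower (background 1.45%), and 6 of 11 in the authors' deposited table (background 5.03%), where the median was -1.05. In the sorted liver cells of the E14 array 10 of these 12 were detectable in both channels, with a median of 0.24. That share is near the one of all named genes, so nothing is read from it. The summed raw signals of the 12 there were 1034 in wild type and 2862 in knockout, blank level included. On that array the knockout channel read brighter by a median factor of 2.19 over all detectable genes. Detection alone does not name a source, since 6 lung epithelium markers passed the same rule there, and the source was not tested. The median of endothelial markers was -0.73, with 6 of 10 at least 1.5-fold lower (background 4.12%), and Cldn5 was lowest at -2.16. Stellate markers on the P1 array had a median of -0.05 and 0 of 11 at least 1.5-fold lower.

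Hepatoblast and hepatocyte markers were also low in the knockout channel by the loess values, and their part in the ratios of the contractile genes was not tested. On the E14 array 9 of 10 were measured, with a median of -0.76 and 0 above 0 (background 53.1%), and 4 were at least 2-fold lower (background 0.0945%). These were the transferrin gene Trf (-1.39), the transthyretin gene Ttr (-1.36), the albumin gene Alb (-1.31) and Afp (-1.26), which encodes alpha-fetoprotein. Each of them had a reading among the brightest spots, which the deposited scanner output gives as whole numbers, and how those readings were made from the scanner's gains is not stated. Highest were Apob (-0.03), Dlk1 (-0.03) and the transcription factor gene Hnf4a (-0.12), none with such a reading. With median centring in place of loess the E14 median was -0.003, beside 0.29 over all genes. Then 4 of 9 were above 0, with no background share computed for that scaling. The size and the signs of single genes thus depend on the scaling, while the list's median stayed below that of all genes. In P1 liver the median was -1.05, with 3 of 9 above 0 (background 49.6%) and 5 at least 2-fold lower (background 1.45%). Lowest were Ttr (-1.65), Ahsg (-1.56) and Alb (-1.12), and again each of the 5 had such a reading. Under median centring the P1 median was -0.38 and 0 were at least 2-fold lower, with no background share computed.

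Skeletal and heart muscle markers lay partly near the thresholds. In P1 liver 15 could be read in both channels with a median of -0.04 and ratios from -0.28 (Myh8) to 0.10 (Myl1). The defining genes Ckm (50.9 and 90.3) and Nppa (53.6 and 88.3) were near threshold there, and Myh3 (48.0 and 80.0) was below it. On the E14 array Tnnc1, at 501 and 1466, was well above threshold with a ratio of 0.28.

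**Figure D5:**
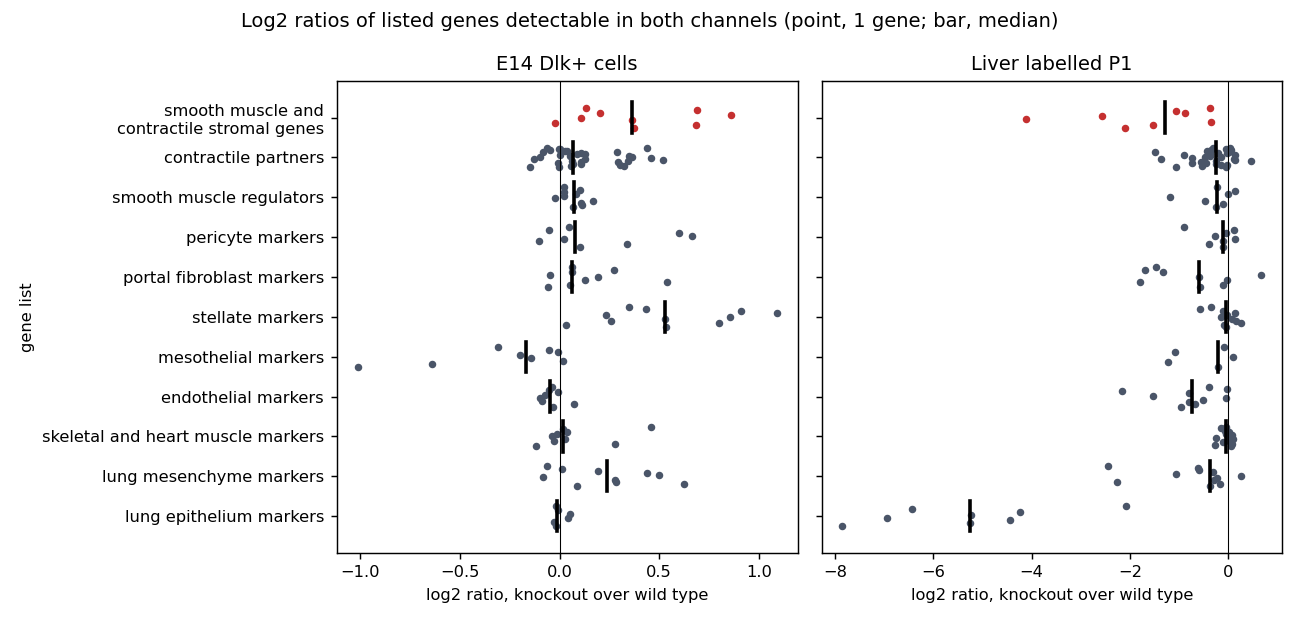
Log2 ratio of knockout over wild type (x axis) for the detectable genes of 11 lists (y axis) on the E14 and P1 arrays, 1 point per gene and a bar at each list's median; the x axes differ. The smooth muscle and contractile stromal genes have medians of 0.36 and -1.30, the stellate markers 0.53 and -0.05, and the lung epithelium markers -0.01 and -5.25.

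The genes nearest to each main gene in the plane of both ratios were found among 8732 genes with intensity not below the 25th percentile on either array, over 2 arrays only. Nearest to Acta2 were the fibrillar collagen gene Col3a1 (distance 0.18, ratios 0.37 and -1.93), the actin-severing gelsolin gene Gsn (0.21, ratios 0.16 and -2.08) and Fstl1 (0.29, ratios 0.56 and -1.89). Nearest to Tagln were the proteoglycan gene Bgn (0.21), Cnn2 (0.24) and Plac9 (0.24). Nearest to Fhl1 were the mesenchymal transcription factor gene Tcf21 (0.39), at 0.63 and -2.27, Acta2 itself (0.67) and the calcium-binding protein gene S100g (0.75), at 0.21 and -2.94. Nearest to Mfap4 were Wfdc2 (0.45), Mgp (0.53), which encodes matrix Gla protein, and Cav1 (0.63), all with P1 ratios between -3.60 and -3.83. Nearest to Crip2 were the calcium-binding protein gene S100a11 (0.11), the small heat shock protein gene Hspb1 (0.14) and Gpx8 (0.14).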

How the data were processed

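Each of 2 arrays carried wild-type RNA in Cy5 and MMP-14 knockout RNA in Cy3, per the labels. Deposited scanner output gives spot intensities and local background intensities of both channels, not normalised, from scans at 3 gains per the file headers. The deposited value table holds the authors' log2 ratios of knockout over wild type, which matched ratios recomputed after blank subtraction and median centring (correlation 0.999995 and 1 across probes; column medians 7.21e-07 and -2.74e-05, in the order E14, P1). The way these gains were combined is not stated in the sources used.

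In limma 3.58.1 (R 4.3.3), normexp with offset 50 was run on spot signals without the local background, which followed the spots (Spearman correlation 0.90 to 0.97), then loess within each array with controls given no weight. This choice followed earlier results of these data. Flagged spots were dropped (4 on the E14 array). Probes were averaged per gene. The method was tested on simulated arrays. Blank spots were trimmed by 5% at each end. Of 16631 probes with a symbol, 3947 symbols were updated with RefSeq GRCm38.p6, and 62 were kept as given.

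The genes and lists were chosen with earlier results of these data known. Named genes were the 9 measured genes, Mmp14, up to 3 highest and 3 lowest of each list, the 3 nearest genes for 5 of the set, and relatives named by family. Nothing was tested, since each comparison has 1 array. The samples hold no replicate numbers to pair. Alternatives were median centring, 3 other background treatments, an offset of 10, the authors' values, no filter on dim genes, the brightest probe, and leaving out genes read as whole numbers.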

Additional observations from a re-analysis of the deposited data

Results flagged for a closer look

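The E14 and P1 arrays gave log2 ratios of opposite sign for 7 genes and for the median of the set. Each ratio was larger than the SD between probes of a gene. These differences were not tested, and the arrays differ in cells as well as stage. Opposite signs of any size were common. Of 12005 genes detectable on both arrays, 23.7% were above 0 on the E14 array and below 0 on the P1 array. Another 19.8% went the other way, and no share was computed for the rule on the SD. The P1 minus E14 difference was -1.66 for the median of the set. It was -3.43 for Fhl1, -2.49 for Acta2, -2.22 for Tagln, -1.75 for Crip2, -1.09 for Crip1, -0.72 for Tpm2 and -0.50 for Myh11. Fhl1, Tagln and Crip2 were on the list because of such a difference, and Acta2 because of a low P1 ratio. The E14 ratio of Acta2 was 0.068 under local-background normexp and -0.021 with the local background subtracted, so its sign there is not settled. Myh11 was near threshold, and under local-background normexp the P1 ratios of Crip1 and Crip2 were 0.041 and -0.13.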

How the results depend on the processing

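The P1 count of genes at least 2-fold lower was 5 and ranged from 4 to 6 over the alternatives. The count at least 2-fold higher on the E14 array was 0, and became 4 with median centring, 2 with the local background subtracted and 1 in the authors' deposited values. The E14 median of the set was 0.36, and became 0.81 with median centring, 0.22 with the local background in normexp, 0.63 with it subtracted and 0.49 in the authors' deposited values. The P1 median was -1.30, and became -0.72 with the local background in normexp, -1.92 with it subtracted, -1.73 with an offset of 10, -2.35 in the authors' deposited values and -1.06 with no filter on dim genes, which adds Cnn1. The E14 median of the contractile partners was 0.07, and became 0.60 with median centring and 0.30 with the local background subtracted. The ratio reversed on the E14 array for Acta2 (-0.021) and Mfap4 (-0.079) with the local background subtracted and for Cnn1 (0.33) in the authors' deposited values, and on the P1 array for Crip1 (0.041) with the local background in normexp. Of the other values of single genes, 99 moved by less than the SD between probes and 50 by more, with no change of sign. The 99 include all values with no filter on dim genes, with the brightest probe and without genes read as whole numbers. Those could not move, because each gene compared had 1 probe, was detectable and was not read as whole numbers. The cause of the moves was not tested. Signal over background limits Cnn1 and Myh11 throughout, and Mfap4, Tagln and Acta2 in the P1 knockout channel. No paired analysis was possible because each comparison has 1 array.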

Other observations

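Portal fibroblast markers had a median log2 ratio of -0.59 on the P1 array, with 1 of 9 above 0 (background 49.6%). Of the 9, 4 were at least 2-fold lower, beside a background of 1.45%. Those 4 were Fbln5, Fbn1, Loxl1 and Cd34. Fbln5, which encodes fibulin 5, read 477 in wild type and 208 in knockout (-1.79). Fbn1, fibrillin 1, read 395 and 183 (-1.70). Loxl1, a lysyl oxidase that cross-links elastin, read 202 and 113 (-1.48), and Cd34, a surface protein of fibroblasts and endothelium, read 210 and 128 (-1.32). Gli1 (-0.59), the elastin gene Eln (-0.56), Fbln1 (-0.11) and Thy1 (-0.02) were nearer 0. The exception in sign was Entpd2, an ectonucleotidase that marks portal fibroblasts, which read 71.0 and 166 (0.68). In the authors' deposited table the list's P1 median was -1.92, with 6 of 9 at least 2-fold lower, beside a background of 5.03%. On the E14 array the list had a median of 0.06, with Fbln5 highest at 0.54 and Eln lowest at -0.06. Several of these genes are also expressed in lung mesenchyme, and the part of the lung signal in their P1 ratios was not tested.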
